A study of Homo sapiens with 14 samples.

Results

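Binding of the NF-κB subunits p50, p52, RelA and RelB was described around 6 genes for transcription factors of lymphoid cells: IRF1 (ENSG00000125347), IRF2 (ENSG00000168310), IRF4 (ENSG00000137265), IRF5 (ENSG00000128604), IRF8 (ENSG00000140968) and PRDM1 (ENSG00000057657). A region was included where the closest gene or the closest transcription start site (TSS) in the authors' annotation was one of these genes. This held for 35 of the 14865 union regions, which are stretches where peaks of any subunit were merged. IRF1 had 4 regions, IRF2 had 7, IRF4 had 9, IRF5 had 3, IRF8 had 4 and PRDM1 had 8. Of the 35 regions, 26 were assigned by both the gene and the TSS, 8 by the TSS only and 1 by the gene only.

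All chromatin came from L1236, a cell line derived from classical Hodgkin lymphoma, in which NF-κB is active without a stimulus. ChIP-seq, which sequences the DNA recovered with an antibody, was performed with 2 replicates for each of the 4 subunits, and 6 libraries of input DNA served as background. The p50 antibody was raised in goat and the RelA and RelB antibodies in rabbit, while p52 was recovered with a mouse antibody in replicate 1 and a rabbit antibody in replicate 2. The 1 cell line is the limit of the model. The study's methods call the replicates biological. The p-values given here rest on the spread between 2 such replicates of this line, which for p52 also holds the difference between the antibodies. Each region's spread was moderated by the spread over all regions tested. This gave 22.1 degrees of freedom for p50 against p52 and 8.72 for p52 against RelB. Within the union regions the merged replicates held 1654137 reads for p50, 1810792 for p52, 315151 for RelA and 470788 for RelB. RelA and RelB thus had fewer reads there than p50 and p52, and whether this makes their calls less precise was not tested. The table holds no RNA levels, so the identity of the cells was not checked against marker genes.

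NF-κB dimers bind κB sites in promoters and enhancers. In the canonical pathway the typical dimer is p50-RelA, and in the non-canonical pathway processing of p100 to p52 gives p52-RelB. p50 and p52 lack a transactivation domain of their own, whereas RelA and RelB carry one. Interferon regulatory factors (IRFs) share a DNA-binding domain that recognizes the interferon-stimulated response element (ISRE). IRF1 is an interferon-inducible activator, and IRF2 competes with it for the same sites. IRF4 and IRF8 are lymphoid factors: IRF8 acts in germinal center B cells, and IRF4 is needed for plasma cell differentiation. IRF5 acts downstream of Toll-like receptors. PRDM1, also named Blimp-1, is a repressor that drives plasma cell differentiation and silences the B cell program.

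The promoter of IRF1 was the only one among those tabulated for these genes that held the κB consensus. A region called for all 4 subunits also spanned the IRF1 TSS in the authors' annotation, so the promoter sequence is shown. The consensus was searched on both strands in the RefSeq promoters, from 250 bases before to 50 bases after the gene start. The table gave 10 promoters for 5 of the genes, with 1 for IRF1, 1 for IRF4, 4 for IRF5, 2 for IRF8 and 2 for PRDM1. The 30-base window at chr5:132490804-132490833 of GRCh38.p14 reads as follows on the minus strand, which is the strand of IRF1, with the κB match in capitals.
IRF1 promoter: ggccagggctGGGGAATCCCgctaagtgtt
The match begins 50 bases before the RefSeq gene start. The same 10 bases match on the opposite strand, where they read GGGATTCCCC. Of 35116 RefSeq promoters, 11.3% held the consensus, so that 1 of these 10 is close to the share over all promoters. The ISRE letters GAAANNGAAA, searched on both strands, were in 0 of the 10 promoters and in 3.57% of all promoters. A missing match says only that the letters are not in this window. The binding regions are in hg18 coordinates and the RefSeq promoters in another build, so the positions of summits and of the match were not set against each other.

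p52 was called at most of these regions. The authors called it in 31 of the 35 regions (88.6%, 95% Wilson interval 74.0 to 95.5%), beside 73.3% of all union regions. p50 was called in 24 regions (68.6%), beside 73.8% of the union, a share that lies inside the interval of these regions. RelB was called in 12 regions (34.3%, interval 20.8 to 50.8%), beside 26.8%. RelA, the rarest of the subunits, was called in 4 regions (11.4%, interval 4.54 to 26.0%), beside 3.31%. These intervals cover counting error only, and neighbouring regions of a gene are not independent of each other.

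The most common combination was p50 with p52 and neither Rel subunit, in 11 regions (31.4%, beside 31.8% of the union). In all, both p50 and p52 were called in 21 regions (60.0%), beside 51.4% of the union. Another 9 regions were called for p52 alone (25.7%, beside 19.8%), 3 for p50 alone (8.57%, beside 21.2%) and 1 for RelB alone (2.86%, beside 3.83%). RelB joined p50 and p52 without RelA in 6 regions (17.1%, beside 17.1%), and joined p52 alone in 1 (2.86%, beside 1.93%), at PRDM1. Every RelA call fell in a region that was also called for the other subunits, as did 349 of the 492 RelA calls in the union. Such regions with all 4 subunits numbered 4 (11.4%), beside 2.35% of the union, and they lay at IRF1, IRF2 and IRF5. IRF4, IRF8 and PRDM1 had no RelA call.

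**Figure D1:**
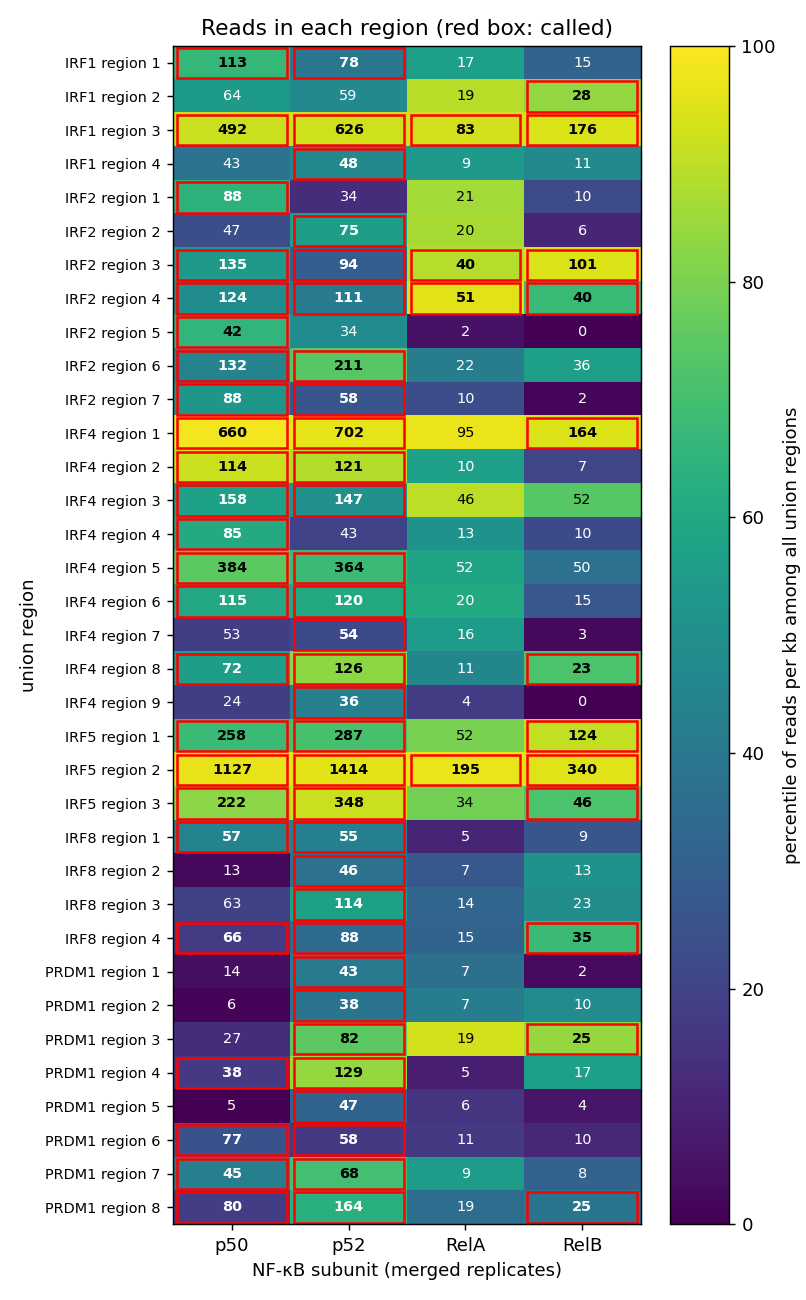
Reads of the merged replicates in each of the 35 regions, by subunit, with the color giving the percentile of reads per kb among all 14865 regions and a red box marking a call. IRF5 region 2 holds the most reads for each of the 4 subunits, and the PRDM1 regions far upstream are dark for p50.

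A region without a call was not always low in reads. As a yardstick, the level exceeded by 95% of called regions was taken for each subunit, in reads per kb of region. Of the regions without a call, 8 of 31 for RelA, 3 of 23 for RelB, 3 of 11 for p50 and 2 of 4 for p52 reached it. Over the union these shares were 20.3% for RelA, 27.3% for RelB, 30.9% for p50 and 30.5% for p52. IRF4 region 1 shows this most clearly: it held 95 RelA reads, or 41.8 per kb, more per kb than 96.9% of all regions, without a RelA call. Its reads per kb also lay above those of 3 of the 4 regions called for RelA. For this reason a missing call is described here as a missing call and not as missing binding.

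Most of the regions lay far from a TSS. Only 3 lay over one (8.57%, beside 16.5% of the union), at IRF1, IRF5 and PRDM1. More than 10 kb separated 27 of them from the closest TSS (77.1%, beside 62.3%), and 7 lay more than 100 kb away (20.0%, beside 18.1%). Inside a gene, either the listed gene or a neighbour, lay 11 regions (31.4%, beside 58.0%). The genes were also rich in regions. Over 8450 genes with any assigned region the median was 1 region per gene, and 4667 had exactly 1. Fewer regions than IRF4 were assigned to 98.3% of these genes, fewer than PRDM1 to 97.5% and fewer than IRF2 to 96.3%. For IRF1 and IRF8 this share was 86.9%, and for IRF5 it was 76.7%.

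**Figure D2:**
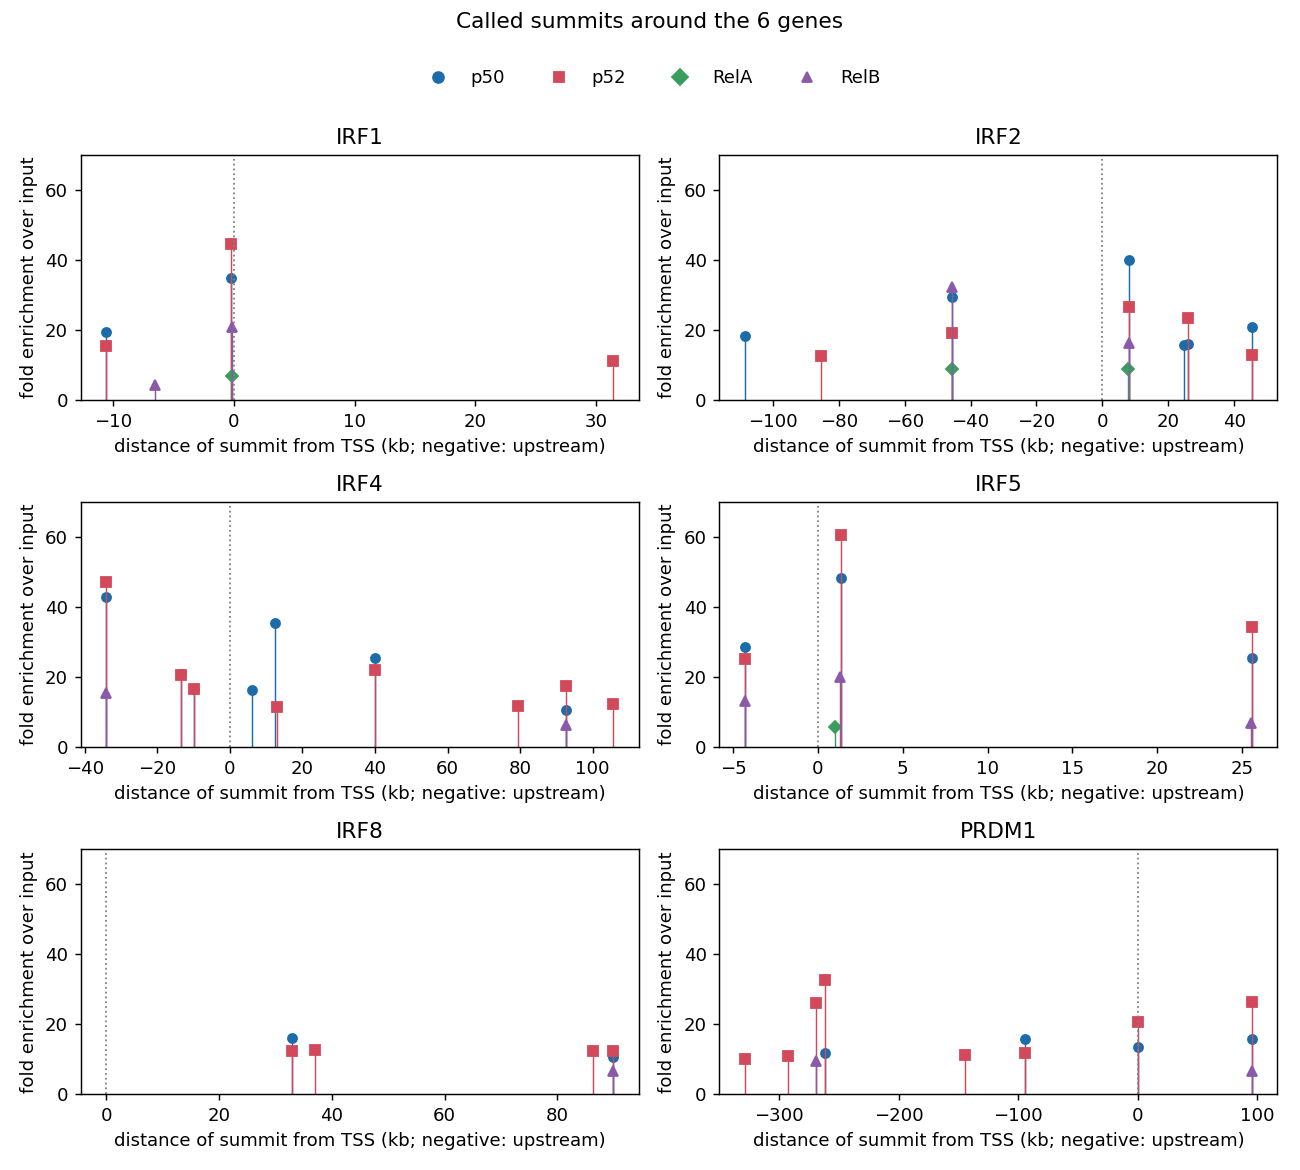
Fold enrichment over input (vertical axis) of every called summit against its distance from the TSS in kb (horizontal axis, upstream negative), with 1 panel per gene and the dotted line at the TSS. Summits of different subunits stand on top of each other at most positions. The regions of IRF8 all lie downstream, and most of those of PRDM1 lie far upstream.

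Where several subunits were called in a region, their summits nearly coincided. The p50 and p52 summits lay a median of 7 bp apart in the 21 shared regions, beside 11 bp over the union, and within 250 bp in 20 of them, beside 95.3% of shared regions in the union. For p52 and RelB the median was 18.0 bp over 11 regions (union 19.0 bp), with a largest distance of 61 bp. For p50 and RelB it was 22.0 bp over 10 regions (union 17.5 bp), with a largest distance of 54 bp. The exceptions were IRF4 region 5, where the p50 and p52 summits were 747 bp apart, and IRF5 region 2, where the RelA summit stood 347 bp from that of RelB and 401 bp from that of p50. Regions are numbered along each gene's strand from the farthest upstream to the farthest downstream.

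IRF1 had all 4 subunits called at its TSS. IRF1 region 3 (hg18, chr5:131853252-131855797) spanned the start site at 131854333 on the minus strand. The summits of p50, p52, RelA and RelB stood 181, 176, 162 and 146 bp upstream of it. Fold enrichment over input at the summit was 34.9 for p50, 44.7 for p52, 6.79 for RelA and 20.8 for RelB. The p52 value exceeded that of 92.2% of all p52 peaks, and the RelB value that of 91.9% of RelB peaks. In reads, the region held 492 for p50, 626 for p52, 83 for RelA and 176 for RelB. Each replicate also has a signal value, a score with no stated scale. These were 985 and 1664 for p50, 1062 and 2571 for p52, 154 and 45.5 for RelA, and 633 and 1368 for RelB. The p50 and p52 values overlapped, and their difference did not pass the test (log2 difference -0.54, SE 0.35, limma adjusted p = 0.314).

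The other IRF1 regions were weaker. IRF1 region 1, which began 10.2 kb upstream, had fold enrichments of 19.3 for p50 and 15.5 for p52. In IRF1 region 2, 6.00 kb upstream, RelB alone was called, at a fold enrichment of 4.29 that only 3.71% of RelB peaks fell below. This region held 64 p50 reads and 59 p52 reads against 28 of RelB and 19 of RelA. IRF1 region 4 lay 31.2 kb downstream inside another gene and was called for p52 alone, at 11.2.

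IRF2, the competitor of IRF1, had 2 of the 4 regions with all subunits, and neither lay at its TSS. IRF2 region 3 (chr4:185632103-185633521) lay 44.9 kb upstream, between genes. RelB had its highest fold enrichment of all 35 regions there, 32.3, above 98.1% of RelB peaks. p50 reached 29.5, p52 reached 19.1 and RelA reached 8.82. It was the only one of the 11 regions called for p52 and RelB in which RelB fold enrichment exceeded that of p52, beside 4.91% of 3200 such regions in the union. The region held 101 RelB reads, 94 p52 reads, 135 p50 reads and 40 RelA reads.

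The RelB signal values in IRF2 region 3 were 1429 and 979 and those of p52 were 109 and 487. Both RelB values lay above both p52 values. In the limma fit over the 3200 regions called for p52 and RelB, each column was first centred on its median, so that the test asks whether a region favours a subunit more than the typical region does. The log2 difference of p52 from RelB was -3.69 (SE 0.71, adjusted p = 0.0348). Of the 11 regions tested around these genes, this was the 1 in which RelB was higher, beside 3.16% of all regions tested. For p52, 0 were higher, beside 0.594%. An unadjusted limma p under 0.05 was found in 2 of the 11, beside 735 of all 3200. The difference in IRF2 region 3 kept its direction but did not pass the threshold without p52 signal value 1 (log2 -3.20) or with quantile normalization (log2 -3.34). Nor did it pass with only regions of at least 5-fold enrichment (log2 -3.71) or without centring (log2 -2.36). The counts moved the other way when a RelB value was left out. Without RelB signal value 2, RelB was higher in 3 of the 11 regions, with IRF2 region 4 and IRF5 region 1 added, beside 628 of 3200. Without RelB signal value 1, p52 was higher in 1, IRF5 region 3, beside 257 of 3200.

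IRF2 region 4 (chr4:185578289-185579679) lay inside the gene, 7.54 kb downstream of the TSS. Its fold enrichments were 40.1 for p50, 26.5 for p52, 8.82 for RelA and 16.2 for RelB. The summits of all 4 subunits fell between 7932 and 7950 bp downstream of the TSS. The p50 signal values were 1202 and 687, above the p52 values of 262 and 506, but the difference missed the threshold (log2 1.14, SE 0.45, limma adjusted p = 0.0880). It passed with a replicate block (limma adjusted p = 0.0437), which pairs same-numbered values though no label ties these numbers to replicates. The remaining IRF2 regions were called for p50, p52 or both and for no Rel subunit. IRF2 region 6, in the gene body, had 132 p50 reads and 211 p52 reads, and fold enrichments of 15.9 and 23.6. IRF2 region 7, beyond the end of the gene, had 88 p50 and 58 p52 reads, and fold enrichments of 20.7 and 12.7. IRF2 region 1, 108 kb upstream and closer to another gene, was called for p50 alone, with 88 p50 and 34 p52 reads.

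IRF4, the plasma cell factor with the most regions, had none over its TSS. IRF4 region 1 (chr6:301624-303894) was its strongest, with summits near 34 kb upstream of the start site at 336760 on the plus strand. It was assigned by the TSS only, since another gene lay closer, at 5.27 kb. Fold enrichment there reached 42.8 with p50 and 47.2 with p52, and RelB had 15.4. Reads numbered 660, 702 and 164, and the p50 reads per kb exceeded those of 98.4% of all regions. The p50 signal values of 2606 and 2268 lay between the p52 values of 1743 and 3193, a difference that did not pass the test (log2 -0.13, SE 0.26, limma adjusted p = 0.768). RelB had signal values of 535 and 1100.

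Between this region and the TSS lay IRF4 regions 2 and 3, called for p50 and p52. IRF4 region 2 had fold enrichments of 21.0 for p50 and 20.7 for p52, and IRF4 region 3 had 16.5 for both. The p50 and p52 enrichments were nearly equal in each of them.

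Inside IRF4 the p50 and p52 peaks did not share a summit. IRF4 region 5 (chr6:347942-350935), of 2994 bp, had its p50 summit 12322 bp and its p52 summit 13069 bp downstream of the TSS. The fold enrichment at these summits was 35.4 for p50 and 11.5 for p52. The p50 signal values were 1198 and 705 and those of p52 were 93.9 and 234, so that the lower p50 value was above the higher p52 value. In the limma fit over all 7643 regions called for both subunits, p50 was higher by a log2 difference of 2.46 (SE 0.51, adjusted p = 0.00502). The call did not pass without p50 signal value 1 (log2 2.21) or without centring (log2 2.63). Counted over the whole region, however, the reads hardly differed, with 384 for p50 and 364 for p52. On the log2 scale, after division by each subunit's total over the union, their ratio was 0.21, higher than in 56.1% of all regions. The fold enrichments belong to the summit the authors list for each subunit, and here those are different places. Whether the signal values belong to the same summits was not checked.

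Of the remaining IRF4 regions, IRF4 region 4, inside the gene, was called for p50 alone, with 85 p50 and 43 p52 reads. IRF4 region 6, past the 3′ end, had fold enrichments of 25.6 for p50 and 21.9 for p52. IRF4 region 8 was called for RelB too, at 6.27, with 10.6 for p50 and 17.6 for p52. Regions 7 and 9 of IRF4, called for p52 alone, held 53 and 24 p50 reads against 54 and 36 p52 reads. Regions 7 to 9 were each closer to another gene than to IRF4.

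IRF5, the Toll-like receptor factor, had the region with the most reads. IRF5 region 2 (chr7:128364082-128368710) was 4629 bp wide, the widest of the 35, and spanned the TSS at 128365230 on the plus strand. It held 1127 p50, 1414 p52, 195 RelA and 340 RelB reads. Fold enrichment was 48.2 for p50, 60.7 for p52, 5.80 for RelA and 20.0 for RelB, the p52 value above 97.7% of p52 peaks. The summits of p50, p52 and RelB stood 1382, 1346 and 1328 bp downstream of the TSS, and that of RelA 981 bp downstream. The p52 signal values, 911 and 4244, were far apart and enclosed the p50 values of 1342 and 1738. RelB likewise gave 272 and 1648. The p50 and p52 signals were not distinguishable in this region (log2 -0.54, SE 0.36, limma adjusted p = 0.323).

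Both other IRF5 regions were called for p50, p52 and RelB. RelB was thus called in all 3 regions of this gene, beside 26.8% of the union. IRF5 region 1, 2.69 kb upstream, had fold enrichments of 28.6, 25.2 and 13.3. IRF5 region 3, inside a neighbouring gene 24.5 kb downstream, had 25.4, 34.3 and 6.99.

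IRF8, the germinal center factor, had no region at or upstream of its TSS. Its 4 regions all lay past the 3′ end of the gene, from 32.7 to 89.3 kb downstream of the TSS. All were called for p52, beside 73.3% of the union. Fold enrichment of p52 ranged only from 12.3 to 12.6. p50 was called in IRF8 region 1, at 16.0, and in IRF8 region 4, at 10.7. RelB was called in IRF8 region 4, at 6.62. IRF8 region 2 held 13 p50 and 46 p52 reads, a ratio lower than in all but 3.29% of regions. Summed over the 4 regions there were 199 p50, 303 p52, 41 RelA and 80 RelB reads, each the fewest of the 6 genes, in the smallest summed width of 3.61 kb.

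PRDM1, the plasma cell repressor, had the lowest share of p50 reads of the 6 genes. Summed over its 8 regions there were 292 p50 and 629 p52 reads, so that p50 made up 31.7% of both (exact 95% interval 28.7 to 34.8%), beside 47.7% over the whole union. In 4 of the 8 regions p50 was not called and p52 was (50.0%, beside 21.9% of the union). A low share of p50 is therefore partly built in. The shares were 46.7% at IRF1, 51.5% at IRF2, 49.3% at IRF4, 44.0% at IRF5 and 39.6% at IRF8. After division by each subunit's total, the log2 ratio of p50 to p52 at PRDM1 was -0.98. Among 1103 genes with at least 4 regions, 2.45% had a lower ratio. With the reads divided by each subunit's median over the regions instead, the value was -1.13. The reads are of merged replicates, so this ratio has no replicate check and no test.

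The p50 reads were fewest in the far upstream regions. PRDM1 regions 1 to 5 lay 328, 292, 269, 261 and 144 kb upstream of the TSS at 106640888 on the plus strand of chromosome 6. They held 14, 6, 27, 38 and 5 p50 reads against 43, 38, 82, 129 and 47 p52 reads. p52 had more reads in every one of them. Together these 5 regions had 90 p50 and 339 p52 reads, a log2 ratio of -1.78, and the other 3 had 202 and 290, a ratio of -0.39. All 5 fell below the 10th percentile of all regions, -1.16, as did 1 further region of the 35, IRF8 region 2. How these regions entered the union bears on this, since 4 of the 5 and IRF8 region 2 had no p50 call and were there through p52 or RelB. Of the 3250 union regions called for p52 and not p50, 34.5% lay below that percentile, with a median of -0.89. PRDM1 region 4 was called for both subunits, and 0.589% of such regions had a lower ratio. The 2693 union regions over 100 kb from a TSS had a median of -0.35, beside 0.03 over all, and 14.9% of them were below that percentile.

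**Figure D3:**
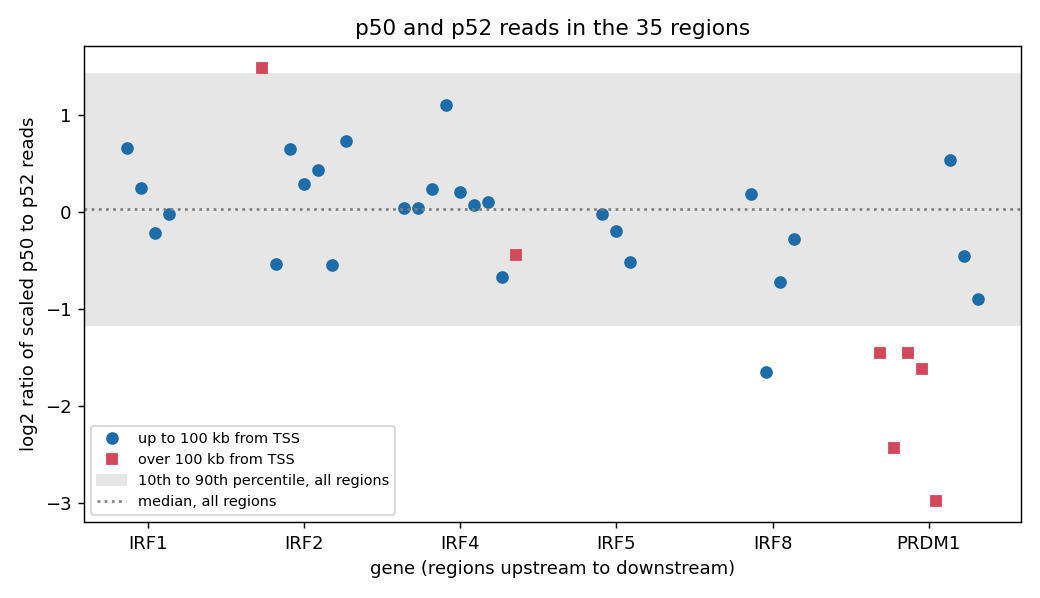
Log2 ratio of p50 to p52 reads in each of the 35 regions, scaled by each subunit's total over the union, by gene and from upstream to downstream. Squares are regions over 100 kb from the TSS, the grey band runs from the 10th to the 90th percentile of all regions, and the 5 far upstream PRDM1 regions lie below it.

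Of these upstream regions, PRDM1 region 4 (chr6:106379139-106379869) was called for both p50 and p52. Its summits were only 37 bp apart, unlike in IRF4 region 5. Fold enrichment was 11.7 for p50 and 32.6 for p52, and the signal values were 204 and 118 for p50 and 431 and 829 for p52. Both p52 values were above both p50 values. The limma log2 difference of p50 from p52 was -2.12 (SE 0.52, adjusted p = 0.0116). It did not pass without p50 signal value 2 (log2 -1.85) or without centring (log2 -1.94). PRDM1 region 3 was called for p52, at 26.1, and RelB, at 9.47, with 25 RelB reads.

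At the TSS of PRDM1, region 7 (chr6:106640541-106641080) was called for p50 and p52 only. The summits stood 73 and 74 bp upstream of the TSS, and fold enrichments were 13.5 and 20.6. Its 9 RelA and 8 RelB reads contrast with 83 and 176 at the IRF1 start site, in a region of 540 bp against 2546 bp. PRDM1 region 6 went the other way from those farther upstream, with 77 p50 and 58 p52 reads. PRDM1 region 8, 95.2 kb downstream and closer to another gene, had 80 p50 and 164 p52 reads and a RelB fold enrichment of 6.63.

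Between p50 and p52 the signal values could be tested in 21 of the 35 regions. p50 was higher in 1 of them, IRF4 region 5, beside 6.54% of the 7643 regions tested. p52 was higher in 1, PRDM1 region 4, beside 8.24%. Among the other 19, adjusted p-values ran from 0.0880 to 0.989. The 4 members with all subunits were among those that did not pass. With a replicate block, IRF2 region 3 and IRF2 region 4 passed too, higher for p50 (limma adjusted p = 0.0384 and 0.0437). p50 was then higher in 3 of the 21 regions, beside 814 of the 7643. The block takes same-numbered values as pairs, which no label states, and pools the spread over all regions. Only in regions with a call for both subunits can the test be made, so the 4 PRDM1 regions without a p50 call did not enter it.

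**Figure D4:**
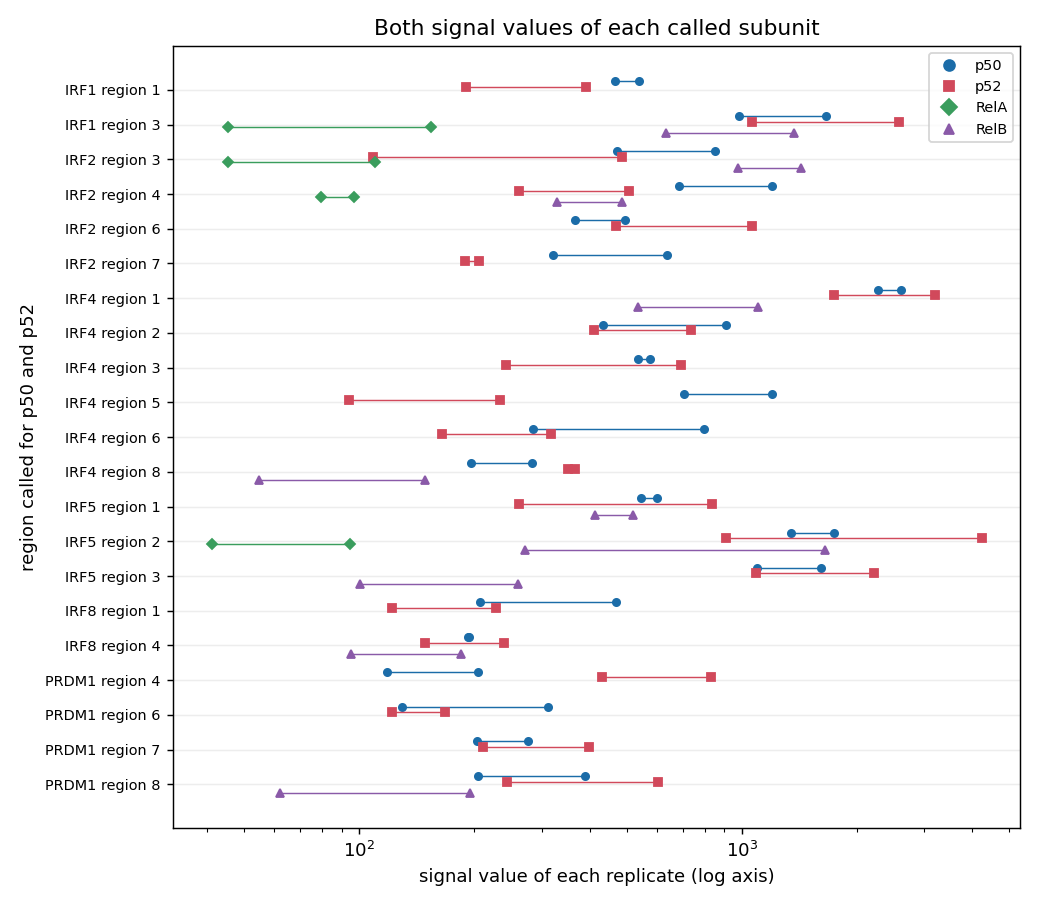
The 2 signal values of each called subunit (horizontal log axis) in the 21 regions called for p50 and p52, joined by a line. The values of p50 and p52 are farthest apart in IRF4 region 5 and PRDM1 region 4, and in IRF2 region 3 both RelB values lie above both p52 values.

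As a whole the 35 regions were enriched about as strongly as others. Median fold enrichment was 18.8 for p50 (union 16.8), 16.5 for p52 (union 17.2), 7.80 for RelA (union 6.23) and 11.4 for RelB (union 9.08). The median log2 ratio of p50 to p52 reads was -0.03, beside 0.03 in the union, and ran from -2.98 to 1.49. Over the 21 regions called for both subunits it was 0.04 by reads and 0.17 by pileup at the summits, so that its sign depended on the regions taken.

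Genes whose 4 subunits took shares of the scaled reads most like those of IRF2, IRF4 and PRDM1 were sought among genes that a table of the study names and that had from 0.5 to 2 times as many regions. Likeness was the Euclidean distance between the 4 shares in percentage points. For IRF2 the nearest of 238 candidates were SMAD2 (1.60), BAD (3.07) and AUH (3.74), with 4, 4 and 5 regions. For IRF4 the nearest of 150 were AFAP (1.44), AHNAK (1.81) and SLC7A5 (2.87), with 9, 6 and 5 regions. For PRDM1 the nearest of 242 were ATXN7L1 (3.65), FGGY (4.06) and AOAH (4.64), with 4, 10 and 8 regions. PRDM1 had 17.6% of its scaled reads from p50 and 34.7% from p52, and ATXN7L1 had 17.2% and 32.9%. Names were at hand for 1134 of the 8450 genes, so nearer genes without a name may exist.

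Other genes of interferon signalling and of the B cell program were taken from a list of 21, of which 7 could be matched by name. All 7 had regions for p50 and for p52, 6 for RelB and 3 for RelA. Of all 8450 genes with a region, 7332 had a p50 region and 6552 a p52 region, while 3224 had one for RelB and 461 one for RelA. Among the receptors and their kinases, IFNGR2, a chain of the interferon-γ receptor, had a p52 fold enrichment of up to 77.4 and a RelA one of 7.08. TYK2, a kinase of the interferon receptors, reached 117 for p52 and 17.9 for RelA. JAK1, another such kinase, had 1 region, with p50 at 25.3 and no RelA call. In the B cell group, BATF, an AP-1 factor that binds DNA together with IRF4, had 9 regions and 1 with all 4. PAX5, BCL6 and BACH2, genes of the B cell and germinal center program, had 8, 3 and 2 regions and no RelA call. The highest p52 fold enrichments were 50.3 at PAX5, 60.9 at BCL6 and 32.2 at BACH2. BACH2, a repressor that restrains plasma cell differentiation, had no RelB call either. The names came mostly from tables of genes that the study counts as bound and regulated by these subunits, so that a p50 or p52 region in each was nearly fixed by how they were named.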

How the data were processed

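L1236 ChIP-seq reads were aligned by the authors with Bowtie to hg18, kept where uniquely mapped, and freed of duplicates. The study states that libraries were then randomly reduced to 10000000 reads. Its quality figures list fewer mapped reads than this for each RelB library, so the RelB libraries could not reach that number. CASAVA and SAMtools are also named in the submitters' processing notes, without versions. The authors called peaks on merged replicates with MACS. The deposited table gives, per union region and subunit, whole read counts of merged replicates without normalization, the fold enrichment (a ratio to input), the pileup (a coverage signal), the FDR (a q-value), the IDR between replicates (a fraction) and 2 signal values, a score per replicate whose order and scale are not given. Distances are the authors', from Ensembl version 54, and TSS positions were derived from them. No deposited column of per-sample values was left unmapped. Profiles and read files were not used here.

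Calls were taken as deposited and counted with Wilson 95% intervals; shares of reads have exact binomial intervals, and both cover counting error only. Read ratios were scaled by each subunit's total over the union. Ratios of single regions used a pseudocount of 0.5 reads. Signal values were tested on the log2 scale after centring each column on its median, with limma 3.58.1 (R 4.3.3, trended eBayes, Benjamini-Hochberg adjustment over all regions tested, threshold 0.05), which compares the 2 values of each subunit. On simulated data with a log2 change of 3 in 200 regions, the fit recovered 99.0% of them for p50 and p52 (7643 regions; 5.26% of calls false) and 86.5% for p52 and RelB (3200 regions; 2.26% false). Figures and counts used Python 3.11.15. Alternatives were the rule of assignment, the call criteria, the scaling, each signal value left out and a replicate block.

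All 6 genes were described. For those with at least 5 regions the 3 named genes most alike in subunit shares were added. Some genes of the list of interferon signalling and B cell genes are not reported here. The members and lists were chosen with earlier results of these data known. Gene names came from tables of the study, and promoters, the IRF1 sequence among them, from RefSeq (GRCh38.p14).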

Additional observations from a re-analysis of the deposited data

How the results depend on the processing

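Counts of called regions stayed within 1.5 times of those reported under the planned rules of assignment, a fold enrichment of at least 5 and an IDR below 0.01, which removed nothing since every deposited call had a lower IDR. Assignment by both gene and TSS, chosen after seeing the data, left 18 regions called for p50, 23 for p52, 4 for RelA and 8 for RelB. The limma counts moved more. For p50 against p52, 1130 of 7643 regions passed (500 higher for p50 and 630 for p52). Without centring 5 passed (4 and 1), and with 1 signal value left out 505 to 652 passed. For p52 against RelB, 120 of 3200 passed; 38 passed with quantile normalization, 2 with a fold enrichment of at least 5, and 0 without centring, where 563 had an unadjusted limma p under 0.05. Leaving out 1 signal value gave 27 to 1100, and the arm with 1 value was then assumed to vary like the other. With a replicate block, 1793 regions passed for p50 against p52 and 296 for p52 against RelB. Under it p50 was higher in 3 of the 21 regions around these genes in place of 1, beside 814 of all 7643. p52 was higher in 1, beside 979. Added for p50 were IRF2 region 3 (log2 1.29, limma adjusted p = 0.0384) and IRF2 region 4 (log2 1.14, limma adjusted p = 0.0437), with the spread pooled over all regions. The numbers were not taken as pairs: deviations of same-numbered values correlated at r = 0.105 and r = 0.0189 across regions, which are not replicates. IRF4 region 5, PRDM1 region 4 and IRF2 region 3 kept their direction under every alternative and passed under the block; the alternatives in which they did not pass are given with each. RelA and RelB reads were few, which limits what a missing call can show.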
